A study of Mus musculus with 4 samples.

Results

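Imprinted genes with known roles in placental and fetal growth were examined in 4 cell lines of murine small cell lung cancer (SCLC). The set comprised 10 genes, H19, Meg3, Dlk1, Peg3, Cdkn1c, Mest, Plagl1, Grb10, Rian and Peg10, which were taken by symbol from the 54641 gene symbols of the expression table. All 10 had a row. Line M1 came from a liver metastasis (n = 1 line), and lines P5, P1 and P4 came from primary lung tumors (n = 3 lines). Separate mice are taken from the design of the series, although the column names of P5 and P1 share a number that no source explains. Every line, the primary ones included, derives from an autochthonous tumor of a C57BL/6 mouse with conditional loss of Rb1 and Trp53 after Adeno-Cre virus was given into the trachea. The cells were untreated, were grown in serum-containing RPMI medium and were sequenced as 1 bulk library per line. The promoter of the Cre virus and the age of the mice at harvest are not given in the sources used here, and the sample labels name lung as the origin of M1 as well.

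An imprinted gene is transcribed mainly from 1 parental copy, and the choice is set by DNA methylation that is laid down in the germ line at control regions and maintained in the embryo. Imprinted genes lie in clusters in which genes expressed from the maternal and from the paternal copy share a control region. Many of them promote or restrain the growth of the fetus and placenta and are turned down after birth. As background from the mouse, H19, Meg3, Rian, Cdkn1c and, outside neurons, Grb10 are expressed from the maternal copy, and Dlk1, Peg3, Mest, Plagl1 and Peg10 from the paternal copy. The values here are totals per gene and do not separate the parental copies.

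The upstream sequences of Meg3, Rian and Grb10 are shown because they span the range of CG content among the members, and CG is the site of the methylation on which imprinting rests. Each is the 250 bases before an annotated start on the strand of the gene, from RefSeq on build GRCm38.p6, with CG in capitals. The window of the first start of Meg3 is at chr12:109540746-109540995 on the plus strand and that of Rian at chr12:109603695-109603944 on the plus strand. That of the first start of Grb10 is at chr11:12037421-12037670 on the minus strand.
Meg3: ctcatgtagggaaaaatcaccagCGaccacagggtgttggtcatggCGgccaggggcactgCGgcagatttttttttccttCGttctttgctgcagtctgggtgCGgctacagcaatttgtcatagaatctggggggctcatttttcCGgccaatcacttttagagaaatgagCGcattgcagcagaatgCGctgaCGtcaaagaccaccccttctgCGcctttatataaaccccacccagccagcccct
Rian: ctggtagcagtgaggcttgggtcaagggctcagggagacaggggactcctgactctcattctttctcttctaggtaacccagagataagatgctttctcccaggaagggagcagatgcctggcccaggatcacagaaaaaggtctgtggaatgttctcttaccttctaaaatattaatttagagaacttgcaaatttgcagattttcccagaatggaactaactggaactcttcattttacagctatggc
Grb10: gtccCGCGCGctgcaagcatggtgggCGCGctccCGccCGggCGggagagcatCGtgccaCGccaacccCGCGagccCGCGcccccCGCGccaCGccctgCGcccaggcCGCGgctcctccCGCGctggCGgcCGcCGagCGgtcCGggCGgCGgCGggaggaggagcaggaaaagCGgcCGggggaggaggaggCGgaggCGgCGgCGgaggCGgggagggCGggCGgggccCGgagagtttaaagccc

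The Grb10 window shown held 40 CG, the Meg3 window shown 10 and the Rian window 0, against a median of 6 over all 32851 windows of this length. At a second start, the Grb10 window held 8 CG and the Meg3 window 0. Of the 10 members, 7 had a window in the table (11 windows, since some have several starts). H19, Cdkn1c and Peg10 had no window there. Among the 11 windows, 4 contained TGCCGC on either strand, the letters bound by the imprint-maintaining factor ZFP57 when methylated, against 8.68% of all windows. GGGGCC on either strand, bound by PLAGL1, was in 6 of the 11, against 22.0% of all windows. TGCCGC itself contains a CG, and several windows belong to 1 gene and overlap. The matches are letters in a window and not measured binding, and methylation was not assayed.

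Facts of the libraries bear on every result below. Expression was given as CPM, that is, reads scaled to a library total of 1000000, and the commonest value above 0, taken as 1 read, gives between 9527011 and 13890726 assigned reads per library. M1 and P4 had 10074 and 7985 symbols above 0, against 20578 in P5 and 17824 in P1. Among 7534 genes at 10 CPM or more in both P5 and P1, 10.1% were listed at 0 in M1 and 19.8% in P4. A value of 0 in these tables is therefore given as listed at 0, and no ratio of CPM is computed against it. Differences on the log2(CPM + 1) scale that involve a listed 0 depend on the added 1 and are no bound on a fold. A count of 3 reads, taken as the floor, would be 0.269 CPM in M1, 0.260 CPM in P5, 0.315 CPM in P1 and 0.216 CPM in P4. Trp53 was at most 0.260 CPM in any line. Rb1 was listed at 0 in both M1 and P4 and reached 13.2 CPM in P5 and 10.3 CPM in P1, and the values do not separate the deleted exons from the rest of the gene. Of 12 neuroendocrine markers, 8 were above 0 in M1, 12 in P5, 3 in P1 and 1 in P4. These counts include values below the floor, such as Neurod1 in P5 (0.0868 CPM) and Dll3 in P1 (0.105 CPM). Ncam1 was high in every line, at 319 CPM in M1 and 1057, 340 and 299 CPM in P5, P1 and P4. Most of the markers were thus above 0 only in P5 and M1, which does not show that P1 and P4 lack the small cell identity of the labels.

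Of the 10 imprinted genes, 1 was above 0 in M1, against 10 in P5, 7 in P1 and 0 in P4, and each of the 10 was highest in P5. Their summed level was 0.358 CPM in M1, against 262 CPM in P5, 58.9 CPM in P1 and 0 in P4. Genes expressed from the maternal copy summed to 0.358 CPM in M1, 150.4 CPM in P5, 34.7 CPM in P1 and 0 in P4. Genes expressed from the paternal copy summed to 0 in M1, 112 CPM in P5, 24.2 CPM in P1 and 0 in P4. In both parental classes P5 had the highest sum and P1 the next, and M1 and P4 were at or near 0. Genes that reached at least 1 CPM in at least 1 line were tested, which were 14888 genes and 8 of the members, without Mest and Plagl1. Of the 8, H19, Meg3, Dlk1 and Rian reached 1 CPM in P5 alone, so that the filter itself fixed P5 as their highest line. The other 4, Peg3, Cdkn1c, Grb10 and Peg10, were highest in P5 as well. Over all genes tested 38.2% were highest in P5, and nothing is read from the members against this share.

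**Figure D1:**
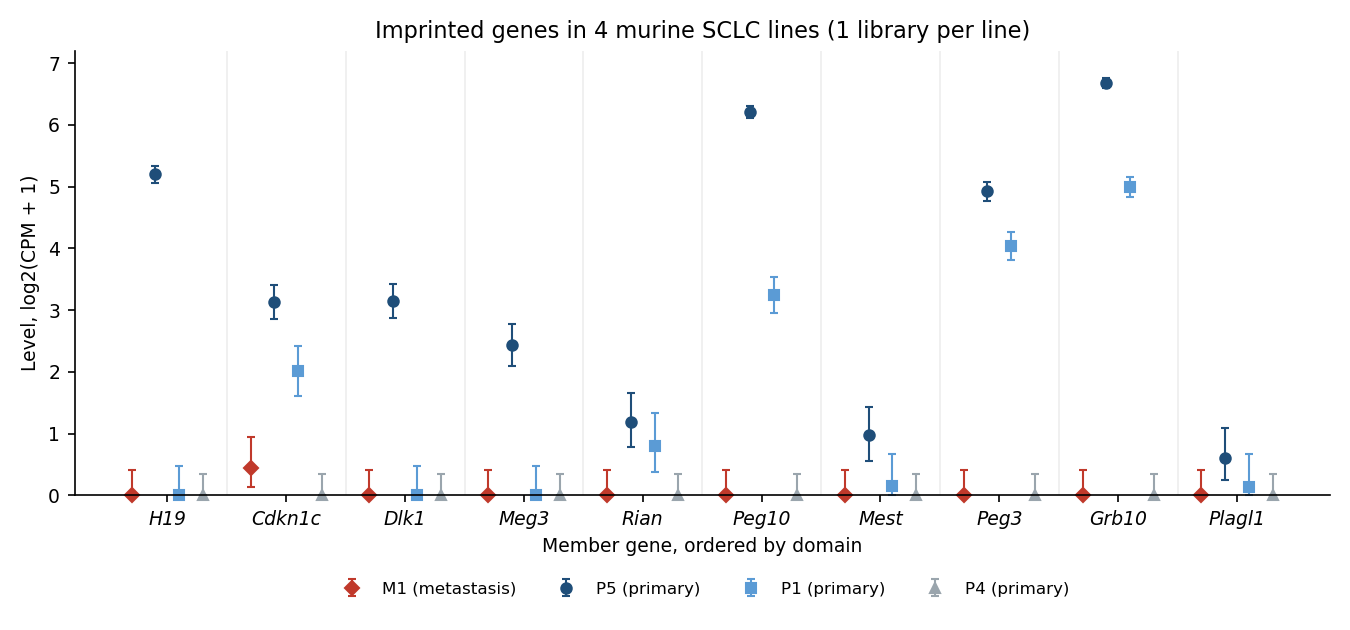
Level of each of the 10 members in each line as log2(CPM + 1), with 1 library per line and bars for exact 95% Poisson intervals of the reads, which cover counting error only. All 10 members are highest in P5, and all except Cdkn1c in M1 lie at 0 in M1 and P4.

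The members are given by role, with the span of each gene on build GRCm38.p6 from RefSeq. H19 (chr7:142575530-142578146), the RNA that gives its name to the cluster it shares with the growth factor gene Igf2, was listed at 0 in M1, reached 35.8 CPM in P5 and was listed at 0 in P1 and P4. The P5 value rested on 412 reads (95% interval 32.4 to 39.4 CPM, exact Poisson, counting error only). H19 reads were thus present in 1 line only. Meg3 (chr12:109540996-109571729), a maternally expressed RNA of the Dlk1-Dio3 cluster, was likewise listed at 0 in M1, reached 4.44 CPM in P5 and was listed at 0 in P1 and P4. Rian (chr12:109603945-109661716), which lies downstream of Meg3 and carries small nucleolar RNAs and microRNAs, was listed at 0 in both M1 and P4 and reached 1.29 CPM in P5 and 0.736 CPM in P1. With 15 and 7 reads, the Rian intervals of P5 (0.729 to 2.15 CPM) and P1 (0.295 to 1.51 CPM) overlapped. The 7 microRNA hairpins that lie inside H19, Meg3, Mest and Rian were listed at 0 in all 4 lines. Whether these libraries capture such short RNAs was not tested, so that absence of the microRNAs is not read from these zeros.

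Regulators of growth signaling and of the cell cycle came next. Dlk1 (chr12:109452485-109463336), which encodes a transmembrane inhibitor of preadipocyte differentiation related to the NOTCH ligands, was listed at 0 in M1, reached 7.90 CPM in P5 (95% interval 6.36 to 9.70) and was listed at 0 in P1 and P4. Its pattern therefore matched that of Meg3, its neighbor in the cluster, in which of the lines had reads. Grb10 (chr11:11930499-12037428), which encodes an adaptor that restrains insulin and insulin-like growth factor receptors, was listed at 0 in both M1 and P4 and reached 101 CPM in P5 and 31.0 CPM in P1. The Grb10 level in P5 was 3.27-fold that in P1 (95% counting interval 2.87 to 3.72). Cdkn1c (chr7:143458339-143461059), which encodes a cyclin-dependent kinase inhibitor mutated in human overgrowth syndromes, was at 0.358 CPM in M1 and 7.81 and 3.04 CPM in P5 and P1 and was listed at 0 in P4. The M1 value of Cdkn1c corresponded to 4 reads (95% interval 0.0976 to 0.917 CPM), and it was the only member above 0 in M1 or P4. The intervals of P5 (6.28 to 9.60 CPM) and P1 (2.04 to 4.37 CPM) overlapped neither each other nor that of M1.

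Genes of zinc finger proteins and of placental growth followed. Peg3 (chr7:6703892-6730462), which encodes a zinc finger protein linked to maternal care and fetal growth in mice, was listed at 0 in both M1 and P4 and reached 29.4 CPM in P5 and 15.4 CPM in P1. Peg3 had the smallest ratio of P5 over P1 among the members with at least 10 reads in both lines, at 1.91 (95% counting interval 1.57 to 2.33). Plagl1 (chr10:13090832-13131694), a zinc finger gene that regulates other imprinted genes in the mouse, was near the limit of detection. It was listed at 0 in both M1 and P4 and reached 0.521 CPM in P5 and 0.105 CPM in P1, which were 6 reads and 1 read. Peg10 (chr6:4747306-4760517), a gene derived from a retrotransposon that is needed for the mouse placenta, was listed at 0 in both M1 and P4 and reached 73.2 CPM in P5 and 8.50 CPM in P1. The ratio of P5 over P1 was 8.61 (95% counting interval 6.84 to 10.95). Mest (chr6:30733506-30748466), which encodes a membrane protein of the alpha/beta hydrolase fold, was listed at 0 in both M1 and P4 and reached 0.975 CPM in P5 and 0.117 CPM in P1, with 11 reads and 1 read. At these depths a difference of Plagl1 between P5 and P1 was not detectable.

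The comparison of the metastasis-derived line with the primary lines asked whether M1 lay outside the spread of P5, P1 and P4. It did not for any member. Of the 8 members tested, 0 passed the threshold (limma on log2(CPM + 1), adjusted p under 0.05), as for 0% of all genes, and 0 members, but 1441 genes, had an unadjusted p under 0.05. The self-test of the fit passed none of the genes that were changed in it, so that a count of 0 does not show that M1 and the primary lines are alike. The primary lines themselves ranged over as many as 6.67 log2 units (Grb10). Grb10 was listed at 0 in M1 and averaged 44.0 ± 51.8 CPM over the primary lines (SD, n = 3), with a log2 difference of -3.89 ± 3.14 (SE) and an adjusted p of 0.721 (limma). Peg10 was listed at 0 in M1 and averaged 27.2 ± 40.0 CPM over the primary lines (SD, n = 3), a log2 difference of -3.15 ± 2.89 (SE) with an adjusted p of 0.721 (limma). Peg3 was listed at 0 in M1 and averaged 14.95 ± 14.7 CPM over the primary lines (SD, n = 3), a log2 difference of -2.99 ± 2.53 (SE) with an adjusted p of 0.721 (limma). The log2 differences of the other 5, H19, Cdkn1c, Dlk1, Meg3 and Rian, lay between -0.66 and -1.73 with adjusted p between 0.721 and 0.755 (limma).

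All 8 differences were negative, but P4 was at 0 for every member, so that M1 was not below every primary line for any of them. Below every primary line were 0 of the 8, against 20.7% of all genes, and above every primary line were 0, against 22.0%. The median log2 difference of the 8 was -1.51, and that of all genes tested was -0.53. Without P4 the median of the members was -2.37, against -0.84 for all genes tested, and Grb10 and Peg3 were at -5.84 and -4.48. With a term that sets M1 and P4 apart from P5 and P1, M1 is compared with P4 alone, and the median was 0. Of the 8, 6 ranged over at least 3 log2 units across the 4 lines, against 43.6% of all genes, and their median range was 4.04, against 2.61 for all genes tested. The filter on low values shaped these counts and medians too, since 4 of the 8 entered through P5 alone.

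Since many genes were listed at 0 in M1 and P4, the zeros of the members were set against genes of like level in P5. Of the 10 members, 9 were listed at 0 in both M1 and P4, 7 of them among the 8 tested, against 27.2% of all genes tested. H19, Peg3, Grb10 and Peg10 had between 20 and 200 CPM in P5, and 4 of these 4 were listed at 0 in both, against 6.31% of the 5765 genes in that range. Of the 4 members with 1 to 20 CPM in P5, 3 were listed at 0 in both, against 45.9% of 7085 genes. A listing at 0 in both lines was thus common among genes at the level of the lower members and rare at that of the higher ones. H19 belonged to the 17 genes with 20 to 200 CPM in P5 that were listed at 0 in M1, P1 and P4, which were 0.295% of the genes in that range. The other 16 included Calca, Chga, Scg2 and Pcsk1, genes of neuroendocrine cells, the growth factor gene Igf1, the matrix gene Fbln5 and the imprinted gene Nnat. These were named after their values were seen. H19, Meg3, Dlk1 and Rian reached 1 CPM in P5 alone and thus entered the test with less than 1 CPM in M1 and P4. The members were chosen with earlier results known, and nothing is read from them against the shares of this paragraph.

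**Figure D2:**
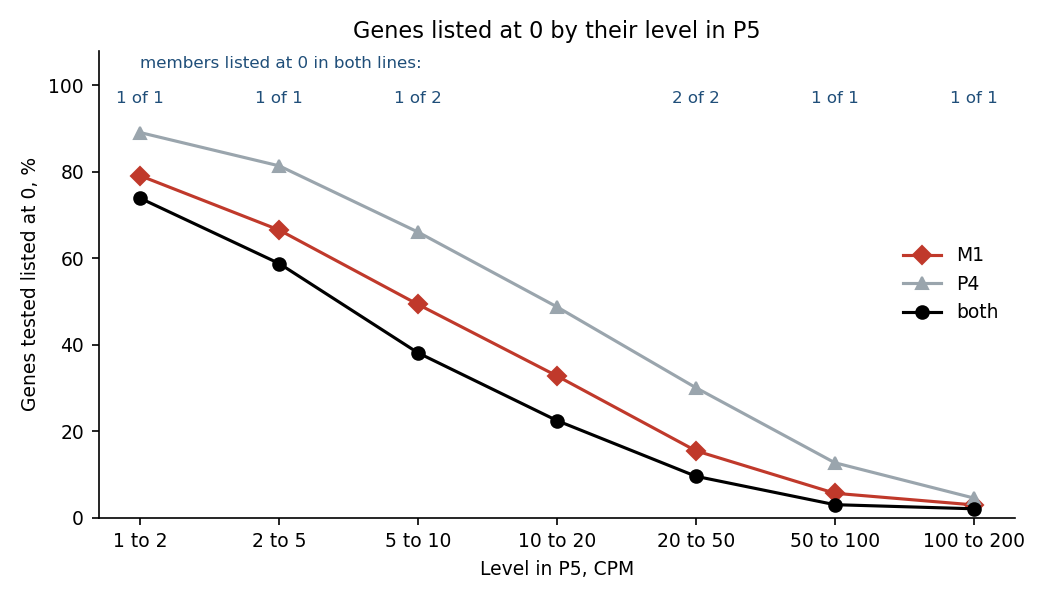
Percent of genes tested that were listed at 0 in M1, in P4 and in both lines (vertical axis), by their level in P5 in CPM (horizontal axis), with the number of members listed at 0 in both written above. In the 20 to 50 CPM range 9.61% of genes were listed at 0 in both lines, as were 2 of 2 members, H19 and Peg3. Of these, H19 entered the test through P5 alone, and nothing is read from the members against this share.

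P5 and P1, the lines with the most symbols above 0, were also compared with each other. With 1 library each, it compares these libraries only. In both libraries reads were found for 7 members, and all 10 were higher in P5. Among all genes tested, 59.0% were higher in P5 than in P1. Mest and Plagl1 were not tested, and H19, Meg3, Dlk1 and Rian reached 1 CPM in P5 alone, so that the filter fixed their order. The 10 are therefore not read against the 59.0%. Cdkn1c, Grb10 and Peg10, which also reached 1 CPM in P1, were at least 2-fold higher in P5 on the log2(CPM + 1) scale, and Peg3 was below that size. H19, Meg3 and Dlk1 were past it too, but they are listed at 0 in P1 and entered the test through P5, so that their excess was fixed by the filter. Over all genes tested 18.7% were at least 2-fold higher in P5, and nothing is read from the members against this share. The counting interval of the ratio excluded equality for 5 of the 7 members with reads in both lines and included it for Rian and Plagl1. One of the 5 was Mest, which was not tested and whose interval (1.32 to 391.5) rests on 1 read in P1. The share of all genes with such an interval was not computed, so that the count is not read as a result about the members.

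Fibroblast markers were also highest in P5 by their sum. The 12 fibroblast and mesenchymal markers summed to 38.5 CPM in M1, 2304 CPM in P5, 122 CPM in P1 and 33.7 CPM in P4, and 2, 12, 9 and 2 of the 12 were above 0 in these lines. Acta2, a smooth muscle and myofibroblast actin, made up 1178 CPM of the sum in P5, and was listed at 0 in both M1 and P4 and at 7.24 CPM in P1. Dcn went the other way, with 2.43 CPM in P5 and 21.8 CPM in P1. Col3a1 was listed at 0 in M1 and reached 483 CPM in P5, 34.0 CPM in P1 and 0.0720 CPM in P4. Thy1 and Lum were at no more than 0.174 CPM in any line. Of 5 endothelial markers, Kdr was at 12.5 CPM in P5 and listed at 0 elsewhere, Cdh5 and Emcn were listed at 0 in every line, and Pecam1 and Tek were at 0.822 and 0.174 CPM in P5. The 12 immune markers summed to 247 CPM in M1 and to at most 12.0 CPM in a primary line. Above 0 were 9 of the 12 in M1, 6 in P5, 6 in P1 and 1 in P4, and Ptprc, Cd3e and Adgre1 were listed at 0 in M1. Of the 10 members, 0 were highest in M1. The part of fibroblast-like cells in the levels of the imprinted genes was not tested. In bulk RNA, fewer cells of a type and less RNA per cell cannot be told apart.

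The partners of the members within their clusters were then examined. A further 64 genes of imprinted clusters or with known imprinting had been listed, of which 63 were in the table and 44 were tested. Of the 44, 0 passed the threshold and 0 had an unadjusted p under 0.05 (limma). In both M1 and P4, 22 of the 44 were listed at 0, against 27.2% of all genes tested. Highest in P5 were 26 of the 44, against 38.2% of all genes, and 15 were above 0 in all 4 lines. M1 was above every primary line in 2 of the 44, against 22.0% of all genes, and below every primary line in 10, close to the 20.7% of all genes. Several of the 44, among them Sgce, Usp29, Ddc and Nnat, reached 1 CPM in P5 alone, so that the filter fixed P5 as their highest line. Nothing is read from these counts against the shares of all genes. The median log2 difference was -0.71, against -0.53 for all genes tested.

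Igf2, Sgce and Usp29 had the same order of P5 and P1 as the members beside them. Igf2, the fetal growth factor gene next to H19 on chromosome 7, was listed at 0 in M1 and reached 54.5 CPM in P5, 5.67 CPM in P1 and 0.0720 CPM in P4. Igf2 thus had reads in P1, where H19 was listed at 0. Sgce, which starts 102 bases from Peg10 and is transcribed away from it, was listed at 0 in both M1 and P4 and reached 8.50 CPM in P5 and 0.420 CPM in P1. Usp29, which shares the start region of Peg3, was listed at 0 in both M1 and P4 and reached 6.68 CPM in P5 and 0.945 CPM in P1. The ratios of P5 over P1 were 9.62 for Igf2 (95% counting interval 7.28 to 12.9), 20.3 for Sgce (7.66 to 75.8) and 7.07 for Usp29 (3.54 to 16.1). Sgce and Usp29, and the genes of the next paragraph below 10 CPM, were named after their values were seen.

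Dio3, Phlda2 and Cobl had the opposite order of P5 and P1, whereas Ddc had the order of Grb10 beside it. Dio3, which encodes the thyroid hormone-inactivating deiodinase at the far end of the Dlk1 cluster, was listed at 0 in both M1 and P4. It reached 0.0868 CPM in P5 and 7.66 CPM in P1, which were 1 read, below the floor, and 73 reads. Dlk1, with reads in P5 but not in P1, lay at the other end with the reverse pattern. Phlda2, a gene that restrains growth of the mouse placenta and lies 40486 bases from Cdkn1c, was listed at 0 in both M1 and P4 and reached 0.608 CPM in P5 and 5.35 CPM in P1. Its ratio of P5 over P1 was 0.114 (95% counting interval 0.0435 to 0.251), whereas that of Cdkn1c was 2.57 (1.67 to 4.05). Beside Grb10 on chromosome 11, Ddc, which encodes the decarboxylase that makes dopamine and serotonin, was listed at 0 in both M1 and P4 and reached 127 CPM in P5 and 0.945 CPM in P1. Cobl, on the other side, was listed at 0 in both M1 and P4 and reached 3.30 CPM in P5 and 12.5 CPM in P1. Genes of 1 cluster thus did not share the order of P5 and P1 throughout.

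**Figure D3:**
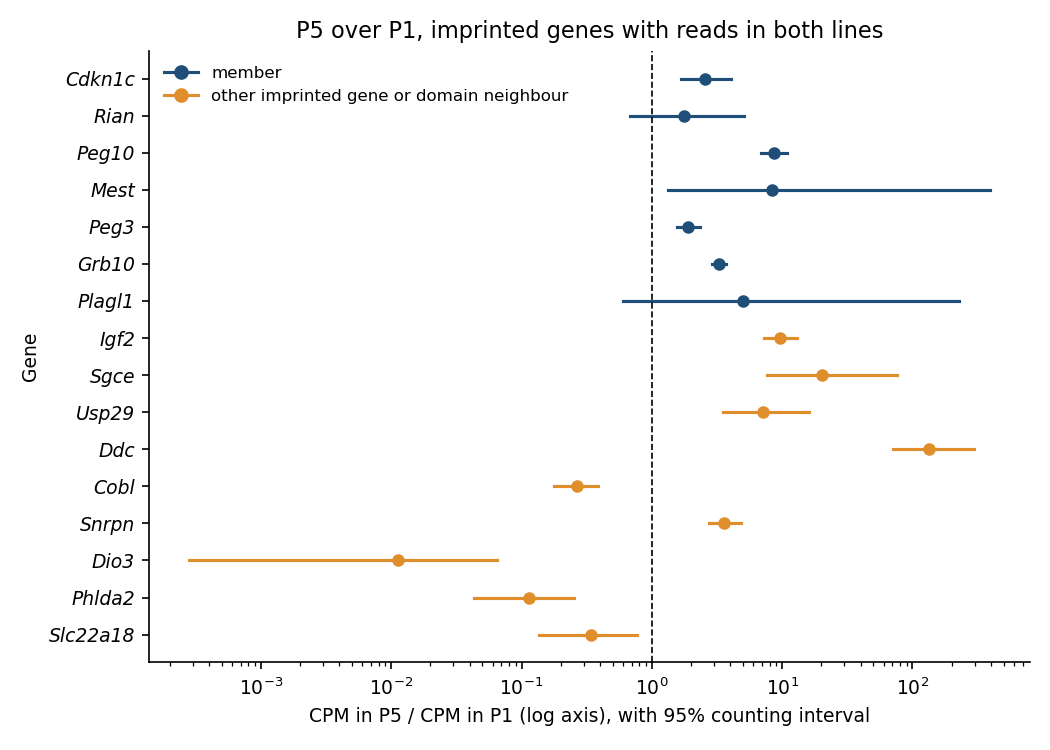
Ratio of CPM in P5 over CPM in P1 on a log axis for 7 members and 9 other genes of imprinted clusters with reads in both lines, with exact 95% counting intervals and a dashed line at a ratio of 1. The 7 members lie above 1, with intervals that include 1 for Rian and Plagl1, and Cobl, Dio3, Phlda2 and Slc22a18 lie below it.

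Other genes at the same clusters had reads in all 4 lines, M1 and P4 included. Copg2, which overlaps the end of Mest on chromosome 6, was at 38.9 CPM in M1 and 35.7, 25.8 and 53.8 CPM in P5, P1 and P4, whereas Mest itself was listed at 0 in M1 and P4. Nap1l4, which encodes a histone chaperone 52520 bases from Cdkn1c, was at 127 CPM in M1 and 199, 156.5 and 226 CPM in P5, P1 and P4. Kcnq1ot1, the paternally expressed RNA that silences the Cdkn1c cluster in the mouse, was at 29.2 CPM in M1 and 41.6, 20.6 and 73.6 CPM in P5, P1 and P4. It was highest in P4, where Cdkn1c was listed at 0, and next highest in P5, where Cdkn1c was highest. Its link to the level of Cdkn1c was not tested. Its log2 difference between M1 and the primary lines was -0.44 ± 0.91 (SE; limma, adjusted p = 0.798). Within 250 kb of the members, 36 other genes were tested, of which 13 were listed at 0 in M1 and P4, against 27.2% of all genes tested, and 16 were above 0 in all 4 lines. Some of the 36, among them Sgce, Usp29 and Ddc, reached 1 CPM in P5 alone, and nothing is read from the count against this share.

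Imprinted genes elsewhere in the genome showed both patterns. Snrpn, a spliceosomal gene of the Prader-Willi cluster, was listed at 0 in both M1 and P4 and reached 23.1 CPM in P5 and 6.40 CPM in P1. Nnat, a paternally expressed gene of the nervous system, was at 39.8 CPM in P5 and was listed at 0 in the other lines, as was H19. Zrsr1, a splicing factor gene, was listed at 0 in both M1 and P4 and reached 48.8 CPM in P5 and 46.3 CPM in P1. In contrast, Gnas, which encodes the stimulatory G protein alpha subunit, was at 558 CPM in M1 and 1076, 542 and 788 CPM in P5, P1 and P4. Igf2r, which encodes the receptor that clears IGF2, was at 49.5 CPM in M1 and 62.5, 20.7 and 14.8 CPM in P5, P1 and P4. Inpp5f and H13 were at 22.3 and 130.35 CPM in M1, against 19.3 to 25.6 CPM for Inpp5f and 131 to 198 CPM for H13 in the primary lines. Commd1, a copper homeostasis gene that hosts Zrsr1, was at 54.1 CPM in M1 and 17.8, 11.4 and 0.216 CPM in P5, P1 and P4 (log2 difference 3.07 ± 2.04, SE; limma, adjusted p = 0.721). It and Tssc4 were the 2 genes of the 44 above every primary line.

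**Figure D4:**
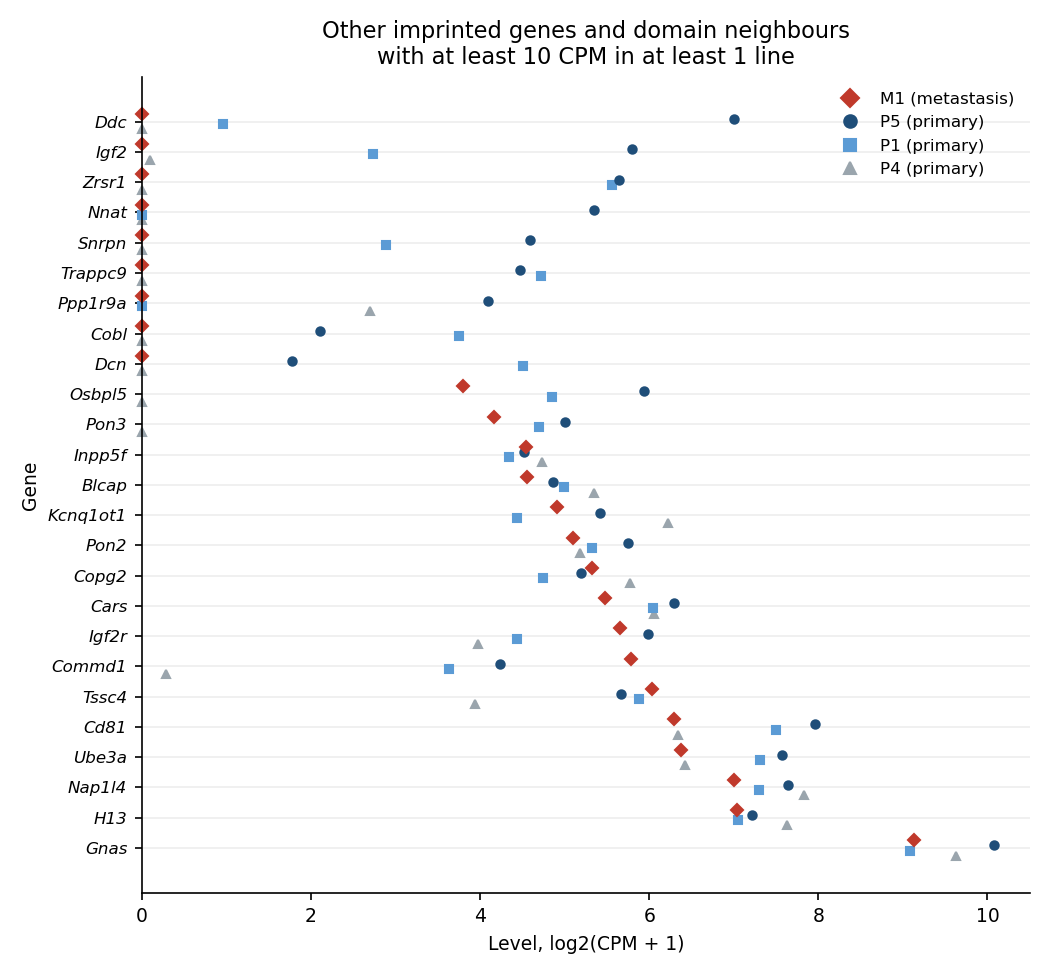
Level as log2(CPM + 1) of the 25 other imprinted genes and cluster neighbors with at least 10 CPM in at least 1 line, with 1 point per line. The 9 genes at the top are listed at 0 in M1, and 14 of the 25 are above 0 in all 4 lines.

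Among the factors that maintain imprints and DNA methylation, 7 had reads in all 4 lines, including Dnmt1, Uhrf1, Trim28 and Ctcf. Dnmt1, the maintenance methyltransferase, was at 79.3 CPM in M1 and 124, 130.3 and 88.8 CPM in P5, P1 and P4. Uhrf1, its partner at replicating DNA, was at 33.7 CPM in M1 and 44.95, 90.4 and 79.55 CPM in P5, P1 and P4. Trim28, the corepressor recruited by ZFP57, was at 356 CPM in M1 and 134, 209.7 and 139 CPM in P5, P1 and P4 (log2 difference 1.17 ± 0.47, SE; limma, adjusted p = 0.583). Ctcf, the insulator protein that separates Igf2 from its enhancers on the maternal copy, was at 53.8 CPM in M1 and 155, 297 and 122 CPM in P5, P1 and P4 (log2 difference -1.71 ± 0.67, SE; limma, adjusted p = 0.572). Dnmt3a was at 17.1 CPM in M1 and 83.8 and 36.0 CPM in P5 and P1 and was listed at 0 in P4. Zfp57 was at 0.448 CPM in M1 and 6.60 and 2.62 CPM in P5 and P1 and was listed at 0 in P4, and it was named after its values were seen. Of 15 such factors, 13 were tested, 0 passed the threshold and 0 had an unadjusted p under 0.05 (limma), with 2 above every primary line in M1, against 22.0% of all genes, and 4 below, against 20.7%. Of so few factors, neither count is read as a difference from these shares.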

How the data were processed

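Total RNA of 4 untreated SCLC lines was sequenced, with 1 library per line. The deposited values are CPM, computed by the authors, and total 1000000 in every library. Per the submitters' processing notes the build is mm10. Aligner and counter are not given in the sources used here, and neither is whether counting used strand. The labels name a total RNA kit, whereas the methods of the study name a kit for 3' ends of mRNA, so that levels were not ranked between genes. Bands of CPM and sums over genes group genes by their share of reads, not by transcript level. The column names of P5 and P1 hold 1 number in common, which no source explains, and separate mice are taken from the design text.

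Lines were grouped by title. The 85 rows without a symbol (at most 0.0130% of a library) were left out, and values of rows sharing a symbol were added up. As 1 read, the commonest nonzero value of a library was taken. Within 0.001 reads, 79.0% to 88.9% of values were whole, so that no count model was fitted. Poisson, ratio (exact binomial) and floor values at the 95% level cover counting error only. Genes reaching 1 CPM in any library entered the test on log2(CPM + 1), which understates changes of low genes, with limma 3.58.1 in R 4.3.3 (lmFit, eBayes with trend, two-sided, Benjamini-Hochberg over 14888 genes). Only the 3 primary lines give the spread, which M1 was assumed to share, and p-values measure the spread between these lines only. A member under 1 CPM outside P5 entered through P5. The fit was tested on simulated data, where it recovered the mean differences but passed none of the changed genes. Alternatives were pseudocounts of 0.1 and 5, no filter, a filter at 5 CPM, median ratio scaling, no trend, leaving out each primary line, and a term for the kind of library. Named were all members, some but not all of the genes of fixed lists reaching 10 CPM in any line, and the 3 nearest profiles of the 3 members with the highest CPM. The members and lists were chosen with earlier results of these data known. The comparisons of P5 with P1, of zeros by level and of cluster neighbors were added after seeing the data.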

Additional observations from a re-analysis of the deposited data

How the results depend on the processing

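Under every alternative 0 members and 0 genes passed the threshold (limma), and since no changed gene passed in the self-test of the fit either, this says nothing about stability. With M1 set against P4 alone, 7 of the 8 member differences were exactly 0. The count of members with a range of at least 3 log2 units was 6, and was 3 with a pseudocount of 5. With 1 primary line left out, it lay between 3 (without P5) and 6 (without P1). Without P5, only 4 members were tested. Against P4 alone, Cdkn1c turned to a log2 difference of 0.44, which rests on 4 reads in M1. The median log2 difference of the members was -1.51, and was -2.56 with a pseudocount of 0.1, -0.80 with a pseudocount of 5, -2.36 with at least 5 CPM, -2.37 without P4 and 0 against P4 alone. The cause was not tested. All 10 members were highest in P5 with P5 and P1 alone and with median ratio scaling, both chosen after seeing the data. The titles of M1 and P1 share 1 number, which pairs no lines. No paired analysis was possible because the groups share fewer than 2 numbers. With 1 library per line, values of a few reads in Plagl1, Mest and Rian are limited by depth.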

Other observations

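Among 10761 other genes reaching 10 CPM in any line, those with the profile nearest to a member over the 4 lines were listed as a description, by the Euclidean distance of log2(CPM + 1) centered on the mean of the lines. Nearest to H19 were Scrn1 (distance 0.00295), the collagen receptor gene Mrc2 (0.0855) and the imprinted gene Nnat (0.132), all listed at 0 in M1, P1 and P4, with 35.7, 38.4 and 39.8 CPM in P5. Nearest to Grb10 were the calcium channel subunit gene Cacna2d1 (0.0715), the extracellular matrix gene Ecm1 (0.117) and Zfp503 (0.325). Nearest to Peg10 were Cebpd, which encodes a transcription factor of early adipocyte differentiation (0.0848), the platelet-derived growth factor receptor gene Pdgfrb (0.238) and Enpp2, which encodes autotaxin (0.245). With 4 lines, between 41 and 54 genes lay within a distance of 1 of each of these members.

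Markers of trophoblast, the cell type in which several of the members act, were mostly at or near 0. Prl3d1, Prl3b1, Tpbpa, Hand1, Psg23 and Tfap2c were listed at 0 in all 4 lines, and Gcm1 and Syna were at most 0.105 CPM. Exceptions were Prl2c2 and Cdx2. Prl2c2, which encodes proliferin and has near-identical copies between which reads can be split, was at 44.7 CPM in M1 and 0.434, 73.05 and 146 CPM in P5, P1 and P4. Prl2c2 was thus lowest in P5, the line in which all members were highest. Cdx2, a homeodomain gene of trophoblast and intestine, was listed at 0 in both M1 and P4 and reached 2.26 CPM in P5 and 43.8 CPM in P1. Elf5 was at 3.22 CPM in M1 and listed at 0 in the primary lines, Synb was at most 4.82 CPM and Rhox5 at most 3.88 CPM in any line.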
